A study of Mus musculus with 10 samples.

Results

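The genes described here are 10 genes used as marks of the mature granule neuron of the dentate gyrus: Prox1, Calb1, C1ql2, C1ql3, Dsp, Tdo2, Plk5, Sv2c, Rfx3 and Lct. They were chosen by symbol, each found as 1 of the 48526 gene identifiers in the deposited table, and all 10 passed the filter on low levels (10 normalized counts on average) and entered the test. None was near 0 in any library: the lowest value was 916 normalized counts, of Tdo2. RNA was measured by sequencing in microdissected dentate gyrus of C57Bl/6 mice aged 8 weeks, 5 injected on each side of the brain with an adeno-associated virus of serotype 9 that carried Sox11 and 5 injected with the same serotype carrying green fluorescent protein (GFP). Each mouse received a virus, so the GFP group is a control for injection and transduction, and uninjected tissue was not analysed here. The sources used here do not give the promoter that drove the viral genes, the share of cells transduced or the time between injection and dissection. The column numbers serve as library names, with 1, 3, 4, 5 and 6 for GFP and 1, 2, 3, 6 and 7 for Sox11.

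Granule neurons are the principal excitatory cells of the dentate gyrus. Their axons, the mossy fibres, run to the CA3 field and to the mossy cells of the hilus, and new granule neurons are added in adult life. A granule neuron that matures leaves behind genes such as Dcx, which encodes the microtubule protein doublecortin of young neurons, and gains genes such as Calb1, while Prox1 is present from the progenitor onward. Young neurons express Sox11, a SoxC family factor that binds DNA through a high mobility group domain.

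Of the 10 genes, Rfx3 and Lct were higher in the Sox11 group, Plk5, C1ql2 and Sv2c were lower, and Prox1, Calb1, C1ql3, Dsp and Tdo2 did not pass the test. Thus 5 of 10 passed limma's test at an adjusted p of 0.05, against 19.0% of the 17007 genes tested; 2 were higher, where the share of all genes was 9.65%, and 3 were lower, where it was 9.36%. The 10 genes were chosen with earlier results of these data known, so their count beside these shares is no test of the set. With any 1 library left out, 1 to 3 of the 10 passed, where 2487 to 3268 of the 17007 genes did. The called differences were small on the log2 scale, between -0.45 for Sv2c and 0.43 for Rfx3. The median log2 difference of the 10 genes was 0.09 and that of all genes tested was -0.006. Plk5 was the single gene of the 10 whose groups did not overlap, against 15.9% of all genes tested.

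The sequences just before the annotated start of the 5 called genes are shown: C1ql2, Sv2c and Plk5, which were lower, and Rfx3 and Lct, which were higher. Each is the 250 bases upstream of the RefSeq start on GRCm38.p6, on the strand of the gene, with CG dinucleotides in capitals. The windows lie at chr1:120340332-120340581 (C1ql2, plus strand), chr13:96132578-96132827 (Sv2c, minus strand), chr10:80356209-80356458 (Plk5, plus strand), chr19:28011167-28011416 (Rfx3, minus strand) and chr1:128328319-128328568 (Lct, minus strand).
C1ql2: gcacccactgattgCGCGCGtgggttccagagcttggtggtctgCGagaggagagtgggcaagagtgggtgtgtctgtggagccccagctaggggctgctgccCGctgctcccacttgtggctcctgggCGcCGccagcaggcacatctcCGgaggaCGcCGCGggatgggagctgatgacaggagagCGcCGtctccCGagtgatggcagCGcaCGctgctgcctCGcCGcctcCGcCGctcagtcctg
Sv2c: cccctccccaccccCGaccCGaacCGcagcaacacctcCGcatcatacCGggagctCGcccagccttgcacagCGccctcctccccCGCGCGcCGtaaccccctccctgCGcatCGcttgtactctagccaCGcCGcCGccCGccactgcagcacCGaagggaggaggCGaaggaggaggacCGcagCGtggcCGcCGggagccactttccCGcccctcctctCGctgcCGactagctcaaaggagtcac
Plk5: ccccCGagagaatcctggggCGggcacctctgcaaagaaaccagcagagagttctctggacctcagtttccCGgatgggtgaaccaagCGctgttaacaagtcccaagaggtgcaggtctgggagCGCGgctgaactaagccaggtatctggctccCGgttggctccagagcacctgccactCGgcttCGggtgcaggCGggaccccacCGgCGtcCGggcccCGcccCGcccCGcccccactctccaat
Rfx3: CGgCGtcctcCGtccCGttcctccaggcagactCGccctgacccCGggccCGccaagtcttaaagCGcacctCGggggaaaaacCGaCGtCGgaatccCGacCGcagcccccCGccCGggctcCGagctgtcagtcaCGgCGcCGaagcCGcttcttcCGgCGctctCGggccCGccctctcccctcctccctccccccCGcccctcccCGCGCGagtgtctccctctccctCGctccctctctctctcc
Lct: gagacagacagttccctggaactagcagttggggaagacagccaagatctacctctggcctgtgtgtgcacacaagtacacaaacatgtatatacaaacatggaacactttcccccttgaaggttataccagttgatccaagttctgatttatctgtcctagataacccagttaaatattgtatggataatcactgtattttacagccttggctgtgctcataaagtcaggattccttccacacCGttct

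The windows differed mainly in base composition. Rfx3 held 30 CG dinucleotides, Sv2c 26, C1ql2 20 and Plk5 16, whereas Lct held 1, and the median of all 32851 RefSeq windows of this length was 6. Windows were found for 9 of the 10 genes, 10 windows in all because Prox1 has 2, and 8 of the 10 held at least 10 CG dinucleotides, against 37.8% of all windows. For 3 of the 10, those of C1ql3, Tdo2 and the second of Prox1, the RefSeq start lies inside the gene as GENCODE draws it, so the annotations differ on the start. They differ for the first window of Prox1 too, which begins at 190170828, outside the gene and not adjoining its GENCODE end at 190170714. The motif ACAAAG or its complement CTTTGT occurred in 16.5% of all windows and ACAATG or CATTGT in 10.7%; 25.2% held either. Both are core words bound by SOX proteins. Of the 10 windows, 1 held such a word, the window of Prox1 at chr1:190169516-190169765, where it began at position -174 from the start. The 9 others, those of both lowered and raised genes among them, held neither, which says only that these letters are not in these windows.

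Sox11 itself was read first as a check of the labels. It stood at 1429 ± 115 normalized counts with GFP and at 12559 ± 4449 with Sox11 (means ± SD over 5 libraries each, as below). The exact two-sided permutation test gave p = 0.00794, the lowest value possible with 5 against 5, and the log2 fold change was 3.08 (SE 0.18). Reads assigned to genes ranged from 45100154 to 68769808 per library. Normalized counts are reads divided by a size factor per library, and the log2 fold changes below are Sox11 minus GFP on log2(normalized count + 1).

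Several of the 10 genes were high in the same libraries, whichever the group. Prox1, Calb1, Dsp, Tdo2 and Rfx3 each had their 3 highest values in GFP 5, Sox11 6 and Sox11 7. The normalized counts of the 10 genes summed to 103097 in GFP 5, 107555 in Sox11 6 and 105596 in Sox11 7, and to between 71425 and 84333 in the other libraries. For 8 of the 10 genes the SD within groups, on the log2 scale, lay above the 90th percentile of the 10219 genes that averaged 500 or more normalized counts, whose median SD was 0.105. Prox1 had an SD of 0.266, whereas Lct had 0.153 and Plk5 0.110, the 78.9th and 55.0th percentiles.

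Markers of tissue next to the granule cell layer also varied between libraries. The 8 measured markers of CA1 pyramidal neurons, the field that lies above the dentate gyrus, summed to 5798 normalized counts in GFP 5, 6706 in Sox11 7 and 10279 in Sox11 6, to 8496 in Sox11 3 and to between 13020 and 25984 in the others. None of them was at 0 in all libraries. Choroid plexus and ependymal markers summed to 379148 in GFP 3 and to between 850 and 3407 elsewhere; the transthyretin gene Ttr, the main secreted product of the choroid plexus, accounted for 345861 in GFP 3. GFP 3 had the lowest summed level of the 10 granule neuron genes, 71425. The 10 oligodendrocyte markers summed to between 68762 and 165334 normalized counts, with overlapping groups. The part of neighbouring tissue in the differences between groups was not tested. In bulk tissue, fewer granule neurons and less RNA of a gene per granule neuron cannot be told apart.

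**Figure D1:**
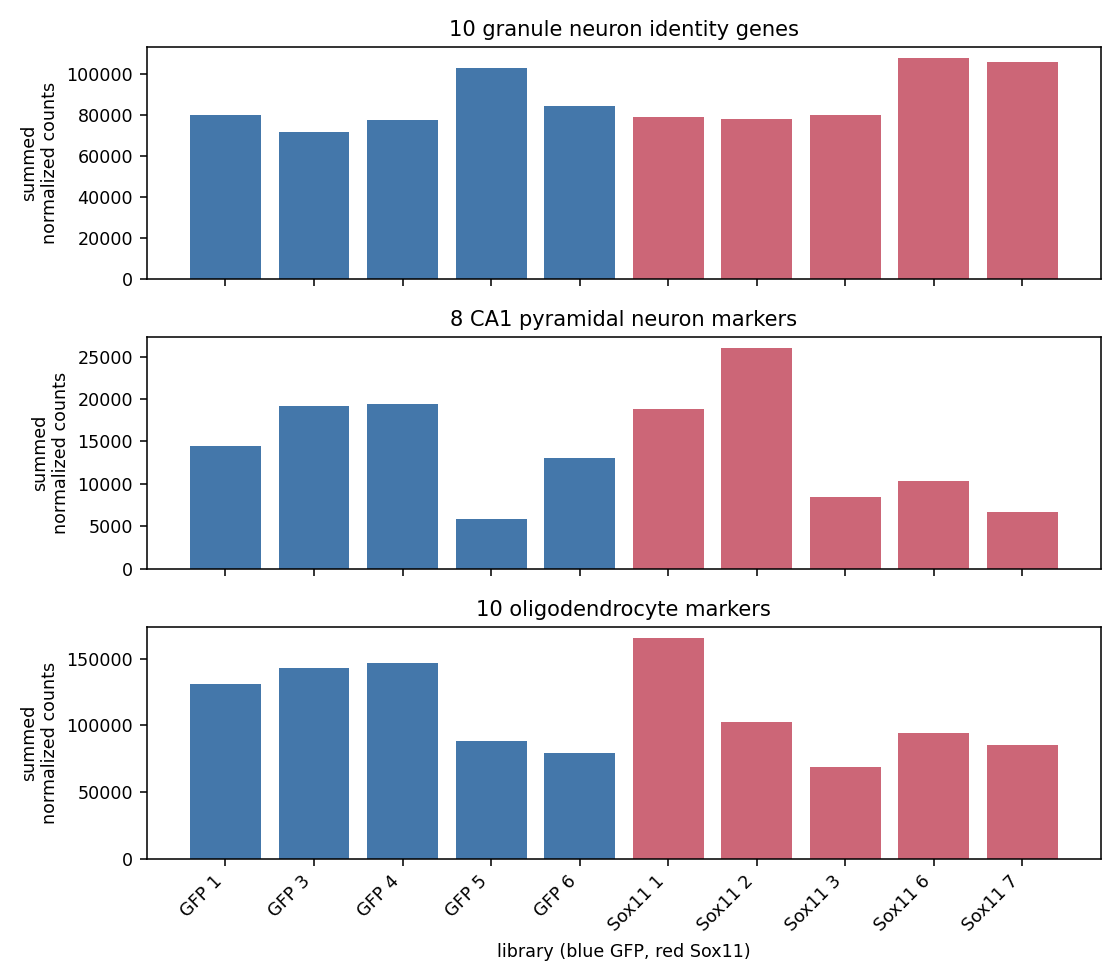
Summed normalized counts per library, on axes that start at 0, of the 10 granule neuron genes (top), 8 CA1 pyramidal neuron markers (middle) and 10 oligodendrocyte markers (bottom), with 1 bar per library, GFP in blue and Sox11 in red. The granule neuron sums are highest in GFP 5, Sox11 6 and Sox11 7, at 103097, 107555 and 105596, and the CA1 sums in GFP 5 and Sox11 7 are the lowest, at 5798 and 6706.

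**Figure D2:**
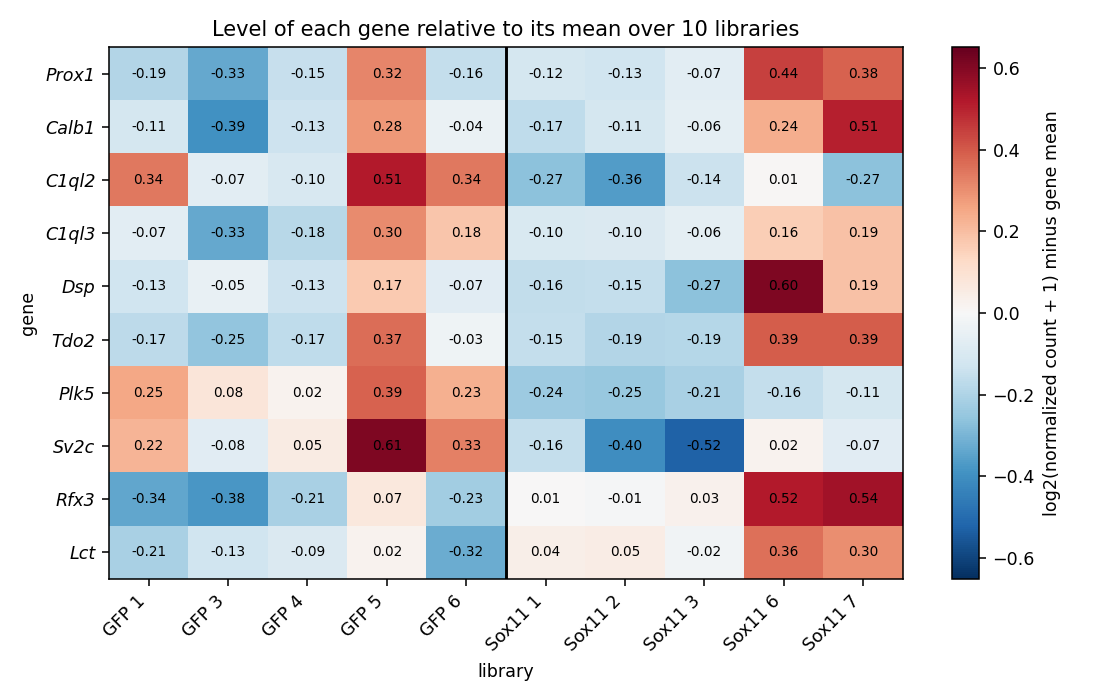
Level of each of the 10 genes in each library as log2(normalized count + 1) minus the mean of that gene over the 10 libraries, GFP libraries first, with higher values in red and lower in blue. GFP 5, Sox11 6 and Sox11 7 are high for Prox1, Calb1, Dsp and Tdo2. For Rfx3, Sox11 6 and Sox11 7 are high, at 0.52 and 0.54, and GFP 5 is at 0.07. Plk5 is high in the GFP group and low in the Sox11 group.

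Among the transcription factors, Prox1 was not past the test and Rfx3 was higher. Prox1 encodes the homeodomain protein that specifies granule neurons and keeps them from a CA3 fate (chromosome 1, 190118035 to 190170714, minus strand, GRCm38). It was at 14744, 13354, 15142, 20946 and 15085 normalized counts in GFP 1, 3, 4, 5 and 6, and at 15511, 15349, 16043, 22834 and 21910 in Sox11 1, 2, 3, 6 and 7. The groups overlapped, with GFP 5 above 3 of the Sox11 libraries and Sox11 6 and 7 highest. The means were 15854 ± 2937 and 18329.5 ± 3714, a log2 fold change of 0.20 (SE 0.15) with a 95% interval from -0.13 to 0.53 and a limma adjusted p of 0.398.

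Rfx3 encodes a winged-helix factor known for the genes of the cilium (chromosome 19, 27761721 to 28011166, minus strand). Its normalized counts were 11088, 10807, 12123, 14712 and 11975 in the GFP libraries and 14077, 13941, 14300, 20075 and 20466 in the Sox11 libraries, in the order given for Prox1. Each Sox11 library lay above 4 of the GFP libraries, and GFP 5 lay inside the Sox11 range. The means were 12141 ± 1543 and 16572 ± 3382. Limma gave a log2 fold change of 0.43 with an SE of 0.13 and an adjusted p of 0.0434. The call was lost without GFP 1, 3, 4 or 6 or Sox11 6 or 7 (adjusted p 0.0817 to 0.0900), while the log2 fold change stayed between 0.35 and 0.51 with any 1 library left out. Without GFP 5, Sox11 6 and Sox11 7 together it was 0.30 (adjusted p 0.0163), and with estimated sample weights it was 0.29 and did not pass (adjusted p 0.0961). Those 3 libraries were chosen after seeing the data and hold the 3 highest values of Rfx3. Leaving them out narrows its spread, so that adjusted p is no support for the difference.

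Calb1 encodes calbindin, the cytosolic calcium buffer of mature granule neurons (chromosome 4, 15881264 to 15908064, plus strand). It was at 13255, 10926, 13074, 17435 and 13927 normalized counts across the GFP libraries and at 12774, 13244, 13726, 16881 and 20363 in the Sox11 libraries. The groups overlapped through most of their range. Limma put the log2 fold change at 0.16 (SE 0.15, 95% interval -0.17 to 0.49, adjusted p 0.527). The difference thus did not pass the test, and the interval holds both a small decrease and a rise of about the size seen for Rfx3.

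Of the synaptic genes, C1ql2 and Sv2c passed the test as lower and C1ql3 did not pass. Whether their changes differ from each other was not tested. C1ql2 and C1ql3 encode secreted C1q-like proteins that granule neurons release at mossy fibre synapses, where they organize postsynaptic glutamate receptors. C1ql2 (chromosome 1, 120340582 to 120343174, plus strand) was at 10654, 8019, 7816, 11999 and 10663 normalized counts across the GFP libraries and at 6974, 6529, 7615, 8458 and 6977 in the Sox11 libraries. The groups overlapped only because Sox11 6 lay above GFP 3 and GFP 4. The means were 9830 ± 1831 and 7311 ± 749. This is a difference of -0.41 on the log2 scale (SE 0.12, limma adjusted p 0.0389). The call was lost in 7 of 10 fits with 1 library left out (without GFP 1, 5 or 6 or Sox11 1, 2, 3 or 7; adjusted p 0.0660 to 0.0866), and the log2 fold change stayed between -0.49 and -0.34.

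C1ql3 (chromosome 2, 13003457 to 13011806, minus strand) was at 10825, 8993, 10012, 14001 and 12837 normalized counts across the GFP libraries and at 10592, 10609, 10855, 12659 and 12921 in the Sox11 libraries. The Sox11 libraries lay inside the GFP range. The log2 fold change was 0.04 (SE 0.12, 95% interval -0.22 to 0.30, limma adjusted p 0.880), and it lay between -0.04 and 0.12 with 1 library left out. Of its exonic bases 64.2% are also covered by genes on the opposite strand, Gm37811 at 69.9 to 116 normalized counts and Gm37824 at 0 to 12.1, and the sources used here do not give the strand setting of the counting.

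The ratio of C1ql2 to C1ql3 normalized counts, not corrected for length, was taken within each library and compared between groups. It was 0.984, 0.892, 0.781, 0.857 and 0.831 in GFP 1, 3, 4, 5 and 6, and 0.658, 0.615, 0.701, 0.668 and 0.540 in Sox11 1, 2, 3, 6 and 7. Each Sox11 library lay below each GFP library. This ratio was looked at after the values of both genes were known and carries no test.

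Sv2c encodes a glycoprotein of synaptic vesicles (chromosome 13, 95954594 to 96132577, minus strand). It was at 3668, 2985, 3269, 4789 and 3949 normalized counts across the GFP libraries and at 2826, 2380, 2186, 3195 and 2990 in the Sox11 libraries. Sox11 6 and Sox11 7 lay above GFP 3, and the other Sox11 libraries lay below all GFP libraries. The means were 3732 ± 697 and 2716 ± 421. The log2 fold change was -0.45 (SE 0.14), and limma's adjusted p was 0.0434. The call was lost in 8 of 10 fits with 1 library left out (without GFP 1, 4, 5 or 6 or Sox11 1, 2, 3 or 7; adjusted p 0.0542 to 0.0969), and the log2 fold change stayed between -0.53 and -0.36.

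Plk5 encodes a member of the polo-like kinase family that is expressed in neurons (chromosome 10, 80356459 to 80365489, plus strand). It was at 2096, 1856, 1787, 2299 and 2064 normalized counts across the GFP libraries and at 1494, 1482, 1519, 1579 and 1626 in the Sox11 libraries. Each of the 5 Sox11 libraries lay below each of the 5 GFP libraries, and the Sox11 libraries were close to each other. The means were 2020.3 ± 204 and 1539.9 ± 60.8. Limma gave a log2 fold change of -0.39 with an SE of 0.07 and an adjusted p of 0.00248. The call held with each library left out in turn (adjusted p 0.00218 to 0.00779). Without GFP 5, Sox11 6 and Sox11 7 together, a choice made after seeing the data, the log2 fold change was -0.38 (adjusted p 0.0135). The call was lost within the columns numbered 4 to 7, with fewer libraries (adjusted p 0.0520), and relative to Prox1 in the same library (adjusted p 0.0590).

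**Figure D3:**
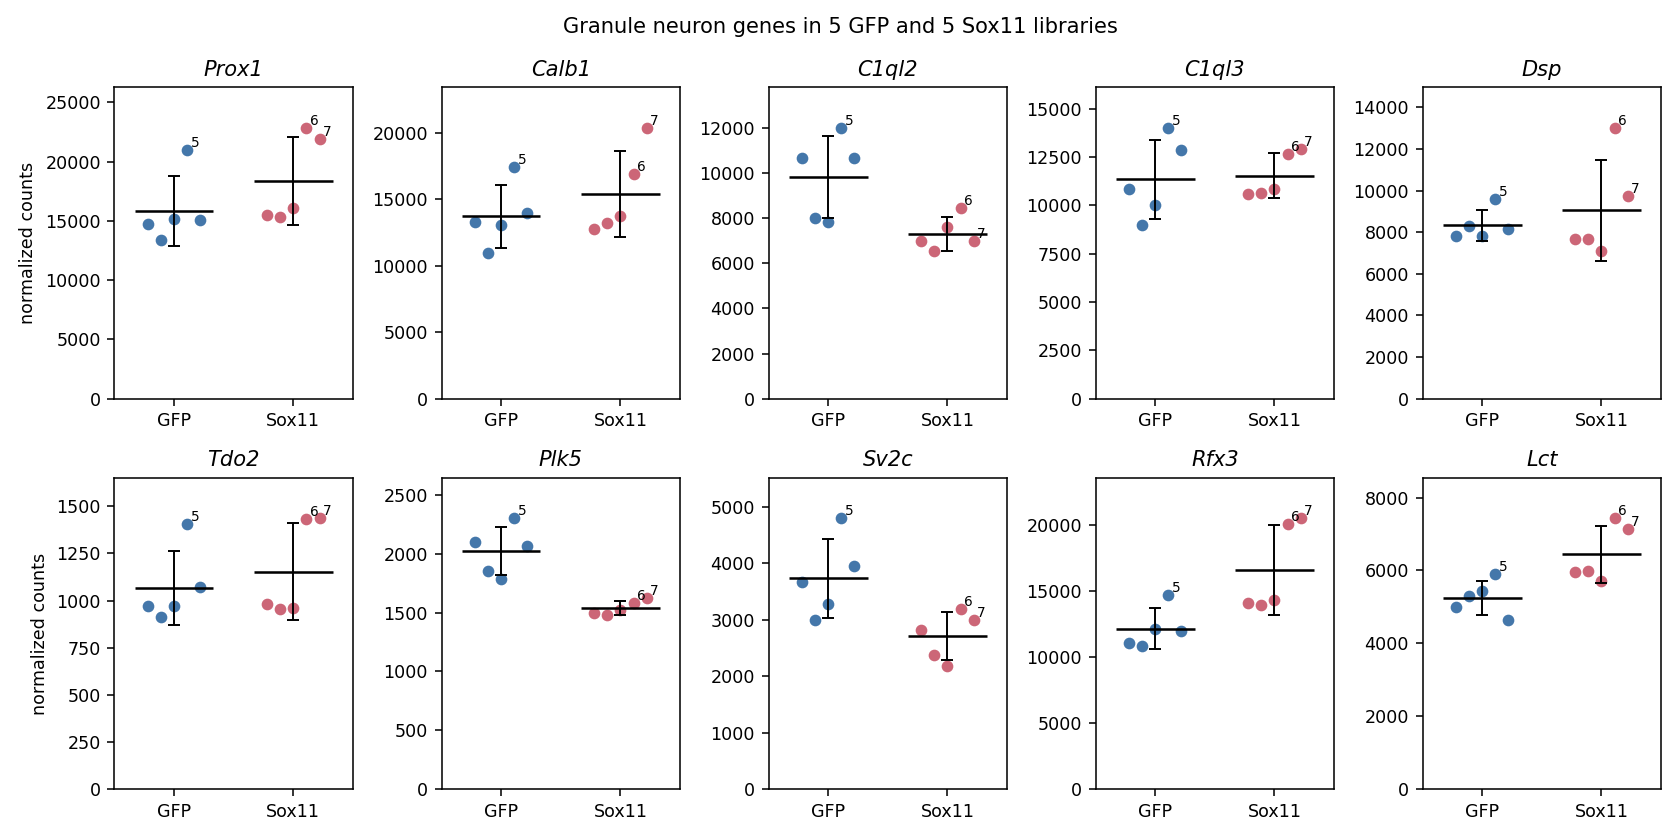
Normalized counts of the 10 genes, 1 panel per gene, with 1 point per library and the mean ± SD of each group of 5; the digits 5, 6 and 7 mark GFP 5, Sox11 6 and Sox11 7. The groups are apart for Plk5, from 1482 to 1626 against 1787 to 2299, and overlap for the other 9.

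Dsp encodes desmoplakin, which ties desmosomes to intermediate filaments in epithelia and heart, and within the hippocampus marks granule neurons (chromosome 13, 38151294 to 38198577, plus strand). It was at 7813, 8284, 7797, 9619 and 8134 normalized counts across the GFP libraries and at 7672, 7698, 7108, 13014 and 9760 in the Sox11 libraries. The Sox11 group spanned the whole GFP range, since Sox11 1, 2 and 3 lay below all GFP libraries and Sox11 6 and 7 above them. The log2 fold change was 0.09 (SE 0.15, 95% interval -0.25 to 0.42, limma adjusted p 0.769), and it was -0.05 without Sox11 6.

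Tdo2 and Lct encode enzymes. Tdo2, the dioxygenase that opens the ring of tryptophan at the head of the kynurenine pathway (chromosome 3, 81957090 to 81976202, minus strand), was at 969, 916, 973, 1407 and 1071 normalized counts across the GFP libraries and at 981, 957, 960, 1434 and 1435 in the Sox11 libraries. GFP 5, Sox11 6 and Sox11 7 stood apart from the 7 others, and the groups overlapped. The log2 fold change was 0.10 (SE 0.16, 95% interval -0.25 to 0.45, limma adjusted p 0.735).

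Lct encodes lactase, the enzyme of the intestinal brush border that splits milk sugar, and its transcript is also enriched in the mouse dentate gyrus (chromosome 1, 128284756 to 128328318, minus strand). It was at 5007, 5287, 5428, 5891 and 4628 normalized counts across the GFP libraries and at 5955, 5994, 5705, 7425 and 7148 in the Sox11 libraries. The groups overlapped only through GFP 5 and Sox11 3. The means were 5248 ± 472 and 6446 ± 782. This is a difference of 0.29 on the log2 scale (SE 0.09, limma adjusted p 0.0360). The call was lost without GFP 1, 3, 4 or 6 or Sox11 6 or 7 (adjusted p 0.0506 to 0.0820), and also without GFP 5, Sox11 6 and Sox11 7 together (0.21, adjusted p 0.0593).

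The number of calls depended on the libraries in the fit. Without GFP 5, Sox11 6 and Sox11 7, 3 of the 10 genes passed (Plk5, Sv2c and Rfx3), where 12.9% of all genes did. The choice of these 3 libraries followed the values of the 10 genes, so this count is no support for the calls. The deposited columns were also divided by their numbers, 1 to 3 against 4 to 7, a division that no label explains. With it as a covariate 5 of the 10 genes passed, against 23.8% of all genes. Within columns 1 to 3 there were 2, Plk5 and Rfx3, against 5.96%, and within columns 4 to 7 there were 2, Rfx3 and Lct, against 15.2%. Columns 1 to 3 are GFP 1 and 3 and Sox11 1, 2 and 3, and columns 4 to 7 are GFP 4, 5 and 6 and Sox11 6 and 7. These fits hold fewer libraries, so calls can be lost by size alone.

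As ratios of normalized counts to Prox1 in the same library, which are not corrected for length and are read only between groups, 4 of the 9 other genes separated the groups, against 3.76% of all genes on this scale. C1ql2 was at 0.516 to 0.723 of Prox1 in the GFP libraries and 0.318 to 0.475 in the Sox11 libraries, Sv2c at 0.216 to 0.262 and 0.136 to 0.182, and Plk5 at 0.110 to 0.142 and 0.0692 to 0.0966. Rfx3 went the other way, from 0.702 to 0.809 in the GFP libraries to 0.879 to 0.934 in the Sox11 libraries. Calb1, C1ql3, Dsp, Tdo2 and Lct overlapped between the groups. These 9 ratios share 1 denominator, so they are not independent of each other. Prox1 itself varied within groups, with an SD of 0.266 on the log2 scale. Division by Prox1 carries that variation into genes that do not share its pattern over the libraries. The groups did not overlap for 15.9% of all genes before the division. The 3.76% is thus no plain background for the count of 4 among 9, and whether these genes stand out on this scale was not tested.

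Each value on this scale is divided by that of Prox1, whose log2 fold change was 0.20. This moves the median of all genes by -0.20 on the log2 scale. The fit of these ratios called 2.31% of all genes, where the fit of normalized counts called 19.0%. In it Sv2c was at -0.66 (SE 0.15, limma adjusted p 0.0195) and C1ql2 at -0.62 (SE 0.16, adjusted p 0.0369), both past the threshold. Plk5 at -0.59 (adjusted p 0.0590), Rfx3 at 0.23 (adjusted p 0.369) and Lct at 0.09 (adjusted p 0.768) did not pass, and Calb1, C1ql3, Dsp and Tdo2 had values from -0.17 to -0.04, opposite in sign to those on normalized counts. The choice of this scale followed sight of the data.

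**Figure D4:**
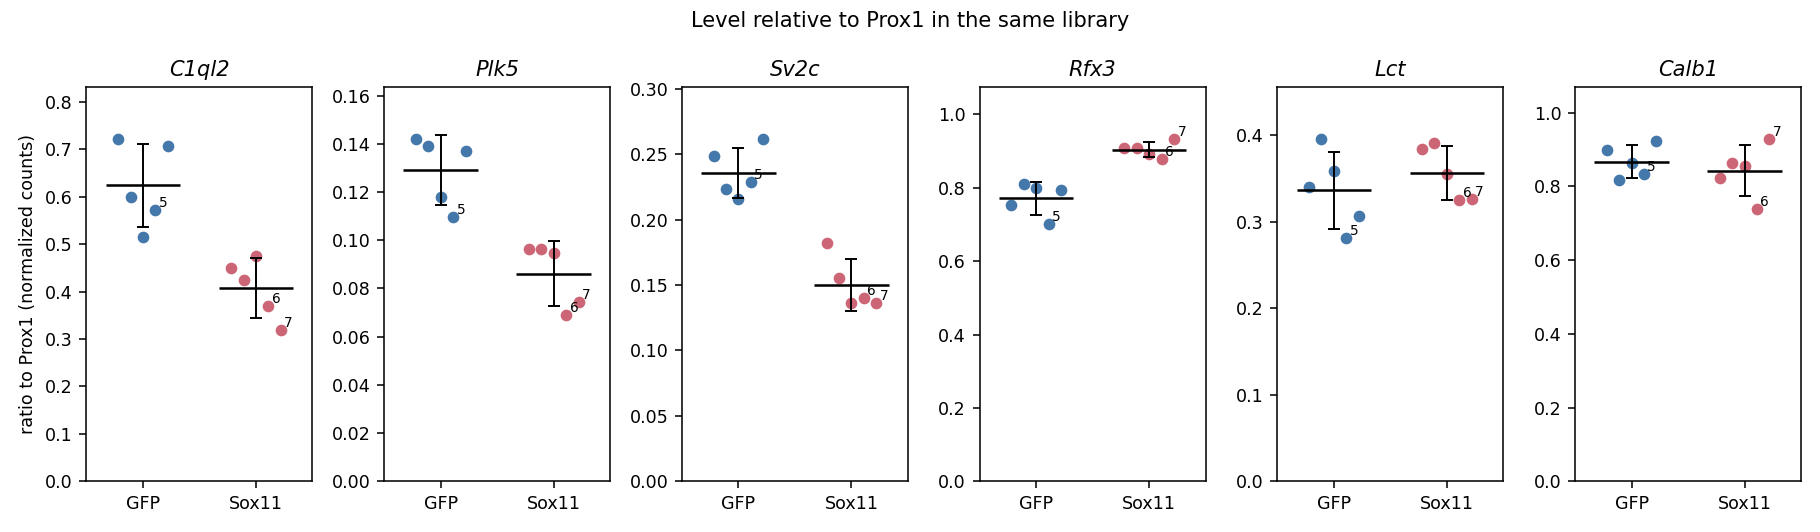
Normalized count of C1ql2, Plk5, Sv2c, Rfx3, Lct and Calb1 divided by that of Prox1 in the same library, 1 point per library with the mean ± SD of each group of 5; the digits 5, 6 and 7 mark GFP 5, Sox11 6 and Sox11 7. The groups do not overlap for C1ql2, Plk5, Sv2c and Rfx3, and overlap for Lct and Calb1.

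To compare levels between genes, normalized counts were taken per kilobase of exon. Exon lengths came from GENCODE M21, while the annotation and strand setting of the counting are not given. Of the exonic bases of C1ql3, 64.2% are also covered on the opposite strand, so its place beside C1ql2 is uncertain. In the GFP group C1ql2 was highest at 4915 ± 916, followed by C1ql3 at 4471 ± 810, Calb1 at 2832 ± 487, Prox1 at 1890 ± 350 and Rfx3 at 1100.3 ± 140. Dsp at 862 ± 77.7, Lct at 819 ± 73.6 and Plk5 at 754 ± 76.2 came next, then Sv2c at 385 ± 71.8 and Tdo2 at 275 ± 51.0. Neighbours in this order overlapped in range except Prox1 over Rfx3 and Plk5 over Sv2c.

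In the Sox11 group the order on this scale began with C1ql3 at 4547 ± 458 and C1ql2 at 3655 ± 374. C1ql2 was above C1ql3 in 4 of 5 GFP libraries and in 0 of 5 Sox11 libraries. Sv2c was above Tdo2 in 5 of 5 GFP libraries and in 1 of 5 Sox11 libraries. Calb1, Prox1 and Rfx3 followed in the same order as in the GFP group, at 3177 ± 662, 2185 ± 443 and 1502 ± 306. Then came Lct at 1006 ± 122, Dsp at 937 ± 252, Plk5 at 575 ± 22.7, Tdo2 at 297 ± 66.2 and Sv2c at 280.0 ± 43.4. Neighbours overlapped in range except Rfx3 over Lct, Dsp over Plk5 and Plk5 over Tdo2.

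For each gene, the 2 genes nearest to it in pattern over the 10 libraries were sought among the 14255 genes that averaged 50 or more normalized counts, by the root mean square difference of their centred log2 values. Prox1 was nearest to Tdo2 (0.068) and Lrrtm4 (0.084), Calb1 to Prox1 (0.092) and Lrrtm4 (0.094), and Tdo2 to Npnt (0.068) and Prox1 (0.068). C1ql2 and Plk5 had Nt5c1a in common (0.079 and 0.068), with Lrtm2 (0.086) and Ssbp2 (0.067) as the other neighbours. C1ql3 was nearest to Gm15506 (0.060) and Shisa9 (0.071), Sv2c to Gfra2 (0.110) and Dusp14 (0.114), and Dsp to Cep152 (0.111) and Kmt2c (0.112). Rfx3 was nearest to Cblb (0.062) and Btbd3 (0.070), and Lct to Zfp37 (0.056) and Sertad4 (0.057). Of these 20 neighbours 3 were among the 10 granule neuron genes themselves, and the distance mixes variation within groups with the difference between them.

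A second list of 19 granule neuron genes was read from the same fit. This list and the lists below were chosen with earlier results of these data known. Their counts beside the shares of all genes are thus no test of the lists. Of these, 2 were higher (9.65% of all genes tested), 6 were lower (9.36%) and 11 did not pass, with a median log2 fold change of -0.17, and 5 did not overlap between the groups (15.9%). Rasl10a, which encodes a small GTPase of the Ras family, fell from 3134 ± 583 to 1677 ± 228 normalized counts (log2 fold change -0.89, SE 0.13, limma adjusted p 0.0013). Igfbp5, which encodes a binding protein for insulin-like growth factors, fell from 16894 ± 1633 to 12224 ± 1376 (-0.47, SE 0.08, adjusted p 0.00315). Gabrd, which encodes the delta subunit of extrasynaptic GABA-A receptors, fell from 2082 ± 276 to 1458 ± 155 (-0.51, SE 0.10, adjusted p 0.00447). The 2 higher genes, named after their values were seen, were Fam163b, at a log2 fold change of 0.53 (adjusted p 0.00502), and Bcl11b, which encodes a zinc finger transcription factor, at 0.37 (adjusted p 0.0121).

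**Figure D5:**
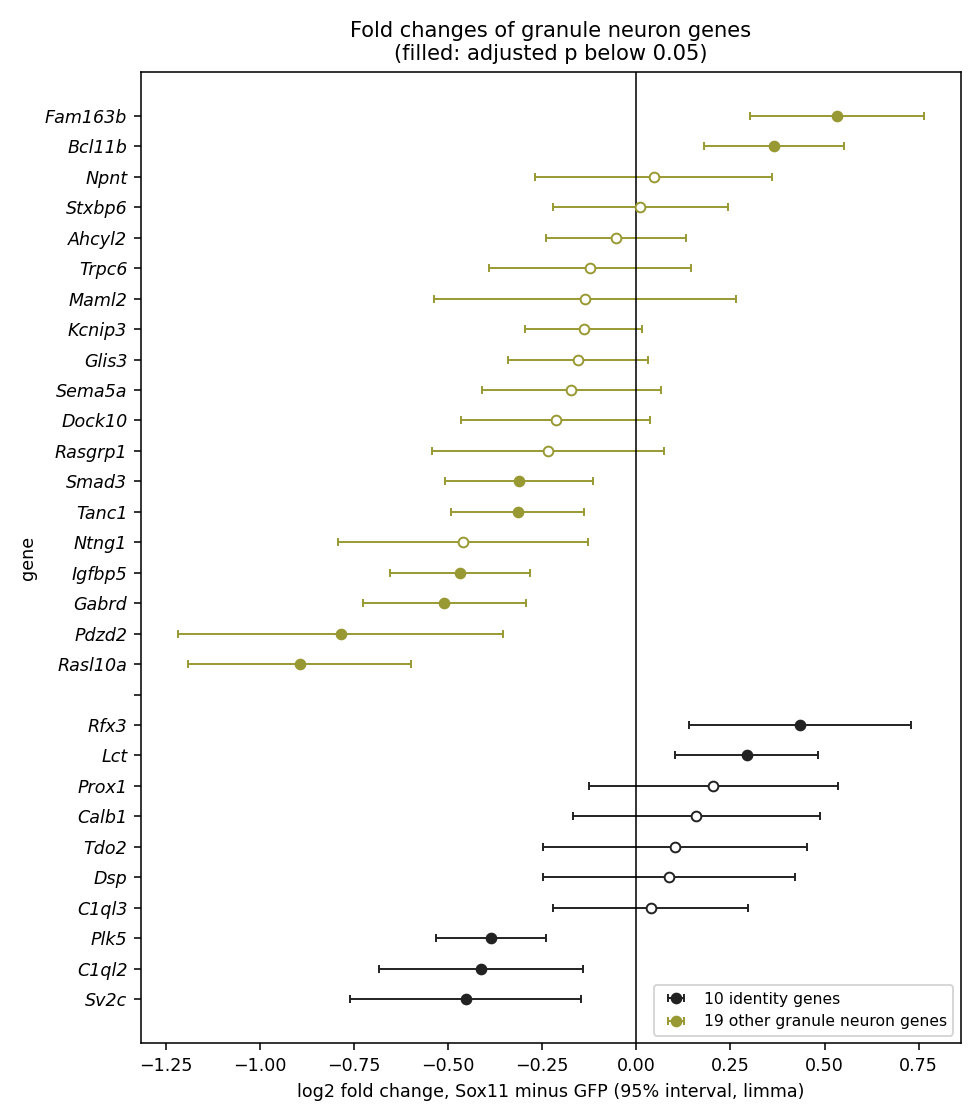
Log2 fold change (Sox11 minus GFP) with its 95% interval from limma for the 10 genes (dark) and for a second list of 19 granule neuron genes (light), filled where the adjusted p was below 0.05. Among the 10 genes the intervals of Rfx3 and Lct lie above 0, those of Plk5, C1ql2 and Sv2c below 0, and the 5 others span 0.

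Among 14 genes of immature neurons 9 were higher, against 9.65% of all genes tested, and 5 did not pass, with a median log2 fold change of 0.74. The 5 that did not pass were Calb2 (log2 fold change 0.06), Neurod1 (0.006), Igfbpl1 (0.16), Eomes (-0.33) and Tac2 (0.49). Stmn1, which encodes the microtubule-destabilizing protein stathmin, rose by 1.52, Dcx by 1.77 and Dpysl5, a gene of the collapsin response mediator family, by 0.99, each with no overlap between the groups. The 14 genes summed to 46683 to 57785 normalized counts in the GFP libraries and 86051 to 108411 in the Sox11 libraries.

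A list of 13 genes held partners of the C1q-like proteins and also the C1q-like genes C1ql1 and C1ql4. Of the 12 tested, which left out C1ql4, 2 passed, both lower, a share near the 19.0% of all genes tested. Nrxn3, a presynaptic neurexin, fell from 8448 ± 1015 to 6204 ± 485 normalized counts (log2 fold change -0.44, SE 0.08, limma adjusted p 0.00411). Neto1, an auxiliary subunit of kainate receptors, fell from 7943 ± 1277 to 5884 ± 696 (-0.43, SE 0.11, adjusted p 0.0224), and its call was lost without GFP 4 or Sox11 1, 2 or 6 (adjusted p 0.0520 to 0.0553). The receptor gene Adgrb3 had a log2 fold change of 0.05, and the kainate receptor subunits Grik2 and Grik4, found at mossy fibre synapses, had 0.04 and -0.04. None of these 3 passed.

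Of 17 tested paralogs of the 10 genes, 1 was higher, 3 were lower and 13 did not pass, a share called near the 19.0% of all genes tested. Among them, C1ql1 was also counted in the list of C1q-like partners. Calb2 was also counted with the immature neuron genes and the mossy cell genes. Rfx4, an RFX factor of neural progenitors and astrocytes, rose from 669.98 ± 47.7 to 827 ± 23.3 normalized counts (log2 fold change 0.31, SE 0.06, limma adjusted p 0.00411). Rfx5, known for the expression of MHC class II genes, fell by 0.27 (adjusted p 0.0275), a call lost without GFP 1 or 5 or Sox11 3 or 7 (0.0607 to 0.0644); of its exonic bases 26.8% are also covered by a gene on the opposite strand. The periplakin gene Ppl, a relative of Dsp, fell by 0.42 (adjusted p 0.0282), a call lost without GFP 1, 5 or 6 or Sox11 3 or 7 (0.0542 to 0.0678).

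A list of desmosome genes besides Dsp, which held no desmosomal cadherins, went in unlike directions. Of 6 tested, 1 was higher and 2 were lower, where 9.65% and 9.36% of all genes were. The median log2 fold change was -0.29 and the mean -0.03. Ppl, counted above among the paralogs, is counted here again. Jup encodes plakoglobin, a partner of both desmosomal and classical cadherins, and rose from 1299 ± 216 to 3221 ± 350 normalized counts (1.32, SE 0.11, limma adjusted p 3.52e-05), with each Sox11 library above each GFP library. Pkp2, a plakophilin that binds desmoplakin, fell by 0.28 (adjusted p 0.0235), a call lost without GFP 4, 5 or 6 or Sox11 1 or 2 (0.0503 to 0.0576).

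In the kynurenine and tryptophan list 8 of 13 genes were tested, of which 2 were higher and 6 did not pass, where 9.65% of all genes tested were higher. Kyat1, a kynurenine aminotransferase, rose from 448 ± 18.6 to 562 ± 19.2 normalized counts (log2 fold change 0.33, SE 0.06, limma adjusted p 0.00233). The other was Aadat, another aminotransferase of this pathway, at 8.30 ± 3.05 and 19.4 ± 7.13 normalized counts. Its GFP mean lies below the filter of 10, so it was tested only because the Sox11 libraries are higher, and its call is no support for a difference. Among 17 genes of the primary cilium, read because of the known role of RFX factors, 1 was higher, 4 were lower and 12 did not pass, with a median of -0.07, where 9.65% and 9.36% of all genes tested were higher and lower. Bbs1, a subunit of the BBSome that carries ciliary cargo, rose by 0.19 (adjusted p 0.0130), while Dync2h1, the motor of retrograde ciliary transport, fell by 0.33 (adjusted p 0.0186). Ift80, a subunit of intraflagellar transport, fell by 0.28 (adjusted p 0.0235), a call lost without Sox11 3 (0.0580).

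Markers of other cells were read with the same fit, in which 9.65% of all genes were higher and 9.36% lower. Of 8 mossy cell genes 3 were lower and 5 did not pass: Ajap1 fell by 0.41 (adjusted p 0.00132), Ociad2 by 0.44 (adjusted p 0.0110) and Nmb, of whose exonic bases 20.6% are shared with Sec11a on the same strand, by 0.75 (adjusted p 0.0166). Of 12 interneuron genes 3 were lower and 9 did not pass: Lamp5 fell by 0.73 (adjusted p 0.000247), Npy, which encodes neuropeptide Y, by 0.42 (adjusted p 0.0156), and Gad2, an enzyme of GABA synthesis, by 0.30 (adjusted p 0.0253, lost without GFP 4, 5 or 6 or Sox11 6 or 7 at 0.0534 to 0.0595). Of 11 astrocyte genes 4 were higher and 7 did not pass, with Gfap, the intermediate filament of astrocytes, up by 0.46 (adjusted p 0.00178) and Aldh1l1 up by 0.22 (adjusted p 0.00743). Sox9 rose by 0.29 (adjusted p 0.0266), a call lost without GFP 4, 5 or 6 or Sox11 2, 3 or 7 (0.0503 to 0.0639).

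By limma, 0 genes passed in the lists of CA1 neurons (8 tested), CA3 neurons (8), oligodendrocytes (10), choroid plexus and ependyma (10) and endothelium (8). Their genes of lowest p were Dcn for CA1 (log2 fold change -0.46), Kcnq5 for CA3 (-0.38), the myelin gene Ermn for oligodendrocytes (-0.45), Kl for choroid plexus (-1.71) and Flt1 for endothelium (-0.18). At an unadjusted p below 0.05, 0 CA1, 0 oligodendrocyte and 0 endothelial genes, 2 CA3 genes and 1 choroid plexus gene passed; edgeR called 0 genes in the 5 lists and DESeq2 called 1, Kcnq5. Without GFP 3, the library with the high choroid plexus sum, Kl was at -1.09 and passed (adjusted p 0.000176). The group ranges of summed level overlapped for each of these lists and for mossy cells, interneurons and astrocytes.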

How the data were processed

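Poly(A) RNA libraries that keep strand were made from microdissected dentate gyrus of 10 mice, per the labels' protocols. Per the submitters' processing notes, the tools were STAR 2.5.2a, featureCounts 1.5.1 of Subread, cutadapt 1.9.1, bcl2fastq 1.8.4 and, in R 3.3.1, DESeq2 1.12.3, on the build GRCm38. The sources used here do not give the annotation or the strand setting of the counting. The table deposited by the authors holds normalized counts (a signal): reads per gene divided by 1 size factor for each library, and 100% of values gave whole reads within 0.01 reads. Its columns are numbered otherwise than the sample titles, so each column was mapped to a group and not to 1 title. The labels name no cages or batches.

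Identifiers were named with GENCODE M21 (48144 of 48526). The 17007 genes that averaged 10 or more normalized counts were compared on log2(normalized count + 1), which understates changes of low genes, with limma 3.58.1 in R 4.3.3 (trend and robust), Benjamini-Hochberg adjustment over all of them and a threshold of 0.05. Sox11 had an exact permutation test. Depth was 45100154 to 68769808 reads in genes. Alternatives were other pseudocounts, filters, scalings, tests (edgeR 4.0.16, DESeq2 1.42.0), thresholds, sample weights, the division of columns by number, and each library left out.

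The 10 genes, the lists and the division by column number were chosen with earlier results of these data known. Named besides the 10 genes were Sox11 and the 2 nearest genes in pattern to each of the 10. From each list, up to 3 genes of lowest p past the threshold were named, or else the 1 of lowest p. Ttr, Adgrb3, Grik2, Grik4, Calb2, Neurod1, Igfbpl1, Eomes, Tac2, C1ql1 and C1ql4 were named after their values were seen. One gene of a list is not reported here, and the list's counts are without it. Promoters came from RefSeq on GRCm38.p6. Other tools were matplotlib 3.10.9, pandas 2.3.3, numpy 2.4.6 and Python 3.11.15.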

Additional observations from a re-analysis of the deposited data

Results flagged for a closer look

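Within groups of 5 libraries, a value was singled out when its gap to the nearest other, divided by the range of the group, exceeded 0.71, Dixon's 95% critical value. Of 126 groups over 63 genes, 9 were singled out, where chance gives about 1 in 20. Among the granule neuron genes, GFP 5 stood above the other GFP libraries for Prox1, at 20946 normalized counts against 13354 to 15142, and for Dsp, at 9619 against 7797 to 8284. The Sox11 gene was at 1634 in GFP 5 against 1364 to 1399 in the other GFP libraries, and at 20434 in Sox11 3 against 9803 to 11591 in the other Sox11 libraries. In the Sox11 group, Ift80 was at 1169.7 in Sox11 3 against 1296 to 1342, Igfbp5 at 14622 in Sox11 2 against 11211 to 12004, Kyat1 at 528 in Sox11 6 against 566 to 574, and Lrtm2 at 4146 in Sox11 6 against 3348 to 3408. Kl was at 13733 in GFP 3 against 1448 to 1722 in the other GFP libraries.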

How the results depend on the processing

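Over the alternatives other than leaving out a library, the 10 genes gave 169 values, of which 135 kept direction and side of the threshold, 23 fell short of it and 11 changed sign; for 52 other named genes, 738 of 883 values did so, 97 fell short, 29 passed newly and 19 changed sign. The cause of these changes was not tested. Part of the tally was fixed beforehand. The thresholds of 0.1 and 0.01 reuse the main fit, so no sign could change there. The pseudocounts of 0.5 and 8 are small beside the levels of the 10 genes. The 5 genes past the threshold became 2 with no filter on low values, 1 in limma without trend and robust, 1 at a threshold of 0.01, 2 within columns numbered 1 to 3, 2 within columns numbered 4 to 7, 2 relative to Prox1, 3 without GFP 5, Sox11 6 and Sox11 7, and 1 to 3 with each library left out; with estimated sample weights there were 4, without Rfx3. Plk5 lost its call within columns 4 to 7 (adjusted p 0.0520) and relative to Prox1 (0.0590). Over all genes, 3234 calls became 1537 at a threshold of 0.01 (816 higher, 721 lower), 1013 within columns 1 to 3 (589 and 424), 392 relative to Prox1 (106 and 286) and 2487 to 3268 with each library left out; without GFP 5, Sox11 6 and Sox11 7, 1005 were higher. The count was 4227 with estimated sample weights and 4080 with DESeq2. It was 2622 with no filter on low values, 3024 in limma without trend and robust and 2583 within columns 4 to 7. TMM and quantile scaling shifted the median gene by 0.008 and -0.001. Both added alternatives, relative to Prox1 and without those 3 libraries, were chosen after seeing the data.

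Some values changed sign. With estimated sample weights the log2 fold changes were Calb1 -0.00939, C1ql3 -0.0918, Dsp -0.0281, Tdo2 -0.0610, Cep152 -0.0273, Dcn 0.177, Gm15506 -0.0354, Kmt2c -0.0215, Npnt -0.0979 and Shisa9 -0.0343. Relative to Prox1 they were Calb1 -0.0449, C1ql3 -0.167, Dsp -0.117, Tdo2 -0.102, Bbs1 -0.0144, Cep152 -0.173, Gm15506 -0.135, Kmt2c -0.165, Lrrtm4 -0.0171, Npnt -0.159, Sertad4 -0.00613 and Shisa9 -0.109. Within columns 1 to 3 they were Dsp -0.104, Cep152 -0.149 and Kmt2c -0.0496. Without GFP 5, Sox11 6 and Sox11 7 they were Dsp -0.0963, Tdo2 -0.0220, Cep152 -0.124, Kmt2c -0.0634 and Npnt -0.00931. With each library left out the ranges were -0.0412 to 0.118 for C1ql3, -0.0537 to 0.164 for Dsp, -0.0509 to 0.113 for Cep152, -0.0456 to 0.0804 for Kmt2c and -0.0272 to 0.159 for Npnt. No paired analysis was possible because the deposited columns carry a group but no number that matches the titles, so the fit with a replicate block was not run.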
